A study of Mus musculus with 4 samples.

Results

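The genes described here carry salt, potassium, calcium and magnesium across the loop of Henle and the distal tubule of the newborn mouse kidney, or mark those segments. They are Slc12a1, Slc12a3, Umod, Kcnj1, Bsnd, Cldn16, Cldn19 and Ptger3, chosen by name as 8 of the 31053 genes in the count matrices, and all 8 were found in both libraries. The study profiled single cells of whole newborn kidneys in 2 droplet libraries with 3′ version 3 chemistry, 1 per genotype. The control library came from Six2Cre kidneys. The other came from Six2CreTet2/3f/f kidneys, in which the same Cre meets floxed alleles of Tet2 and Tet3, and it is called the floxed library below. Six2 drives Cre in nephron progenitors, so recombination is expected in the epithelium that descends from them and not in stroma, vessels, blood cells or the ureteric bud lineage. The labels do not say how many animals went into a library. The 2 bisulfite samples of Six2-positive progenitors were not analysed here.

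The thick ascending limb takes up sodium, potassium and chloride through the cotransporter NKCC2, the product of Slc12a1, and is the target of loop diuretics. Potassium returns to the lumen through ROMK, the product of Kcnj1, and the exit of chloride from the cell needs barttin, the product of Bsnd. The resulting lumen-positive voltage moves calcium and magnesium between the cells through pores of claudin-16 and claudin-19. Further along, the distal convoluted tubule takes up sodium and chloride through NCC, the product of Slc12a3 and the target of thiazides. Uromodulin, from Umod, is the protein that the thick ascending limb secretes into urine, and Ptger3 encodes EP3, a prostaglandin E2 receptor that restrains salt uptake and water reabsorption. Loss of Slc12a1, Kcnj1 or Bsnd function causes Bartter syndrome, loss of Slc12a3 Gitelman syndrome, and loss of either claudin a wasting of magnesium and calcium.

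RNA was counted in UMIs, unique molecular identifiers that each stand for 1 captured RNA molecule. There were 197745868 in the control and 115427704 in the floxed library, spread over 25736 and 22543 barcodes, against 10000 cells loaded per library in the labels. Filters on depth and mitochondrial share and removal of likely doublets left 19492 control and 14393 floxed cells, whose median depths were 5990 and 4776 UMIs. The libraries shared 174 barcodes, 90 of them among kept cells. With 1 library per genotype there is no replicate check of any difference between genotypes. Every interval below covers counting error only, at 95% confidence. Levels are given as CPM, the gene's share of all UMIs summed over a group of cells, scaled to 1e+06. In all kept cells Tet2 stood at 36.6 CPM in the control library and 31.3 CPM in the floxed, and Tet3 at 75.4 and 45.9 CPM. In Slc12a1-positive cells, defined next, Tet2 stood at 44.1 and 46.6 CPM and Tet3 at 74.6 and 39.5 CPM. The files do not place these 3′ tags relative to the floxed exons, so the values do not check the deletion.

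Cells were sorted by their own transporter counts. A cell with at least 3 UMIs of Slc12a1 and at most 1 of Slc12a3 was called Slc12a1-positive, and the reverse Slc12a3-positive. There were 317 Slc12a1-positive cells in the control library, 1.63% of kept cells (exact binomial interval 1.45 to 1.81%), and 400 in the floxed library, 2.78% (2.52 to 3.06%). Slc12a3-positive cells were rarer, with 42 in the control library (0.215%, interval 0.155 to 0.291%) and 32 in the floxed library (0.222%, 0.152 to 0.314%). Only 9 control and 4 floxed cells held at least 3 UMIs of both genes, and their median depth was 38492 and 22876.5 UMIs, against 16723 and 10038.5 UMIs in Slc12a1-positive cells. Whether these deep cells are pairs of cells was not tested. In a dissociated tissue, fewer cells of a type and cells lost in preparation cannot be told apart. The floxed excess of Slc12a1-positive cells was 1.71-fold, and it was 1.25-fold with looser and 2.14-fold with stricter limits on cell quality. The ratio of the Slc12a3-positive shares, 1.03, had no steady direction: it was 0.756 with the looser limits, 1.59 with the stricter ones and 0.602 with at least 10 UMIs for a positive cell.

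In endothelial-like cells, which should lack both transporters, 9 of 2897 control cells (0.311%) and 3 of 1540 floxed cells (0.195%) met the Slc12a1 rule, at median depths of 4428 and 3332 UMIs. The Slc12a3 rule was met by 1 and 2 of these cells. The Slc12a1 shares in endothelial-like cells lay below those in the whole libraries, while the Slc12a3 share in the floxed library, 0.222%, lay within the interval of the endothelial share (0.0157 to 0.468%). Clustering that left the 8 genes out of the variable genes placed 229 of the 317 control and 331 of the 400 floxed Slc12a1-positive cells in 1 cluster of 395 control and 508 floxed cells, cluster 21. It also held 37 of 42 and 25 of 32 Slc12a3-positive cells and all cells positive for both. That cluster scored 2.92 for loop and distal markers and 2.74 for intercalated cell markers (mean log2 ratio to all other cells), so it was given no cell type name. Finer clustering, at Leiden resolution 2, split off cluster 30 (257 control and 325 floxed cells), which was loop and distal-like by its markers with an intercalated cell score of -0.19.

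Markers that did not set the groups separated them. Cldn10, a claudin of the thick ascending limb, stood at 645 CPM in control and 461 CPM in floxed Slc12a1-positive cells, against 10.0 and 6.74 CPM in Slc12a3-positive cells. Calb1, which encodes the calcium-binding protein calbindin of the distal convoluted and connecting tubule, showed the reverse, with 84.2 and 44.4 CPM against 1601 and 1242 CPM. Pvalb, a marker of the early distal convoluted tubule, reached 72.5 CPM in control Slc12a3-positive cells and had 0 UMIs in floxed ones. Egf, a mature marker of both segments, was nearly absent, at no more than 4.46 CPM in any of the 4 groups. The intercalated cell gene Atp6v1g3 was at 327 and 135 CPM in Slc12a3-positive cells, and its part in the results for that group was not tested.

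The transporters define the groups, and their levels are given as a description. Slc12a1 (chr2:125152510-125230002 in GRCm38) summed to 13379 UMIs in control Slc12a1-positive cells, 1916 CPM (exact Poisson interval 1884 to 1949), and to 11992 UMIs in floxed ones, 2164 CPM (2125 to 2203). Its count per cell ran up to 302 UMIs in the control and 186 in the floxed library, with medians of 26 and 20. Slc12a3 (chr8:94329109-94366222) stood at 1038 CPM (973 to 1107) in control and 681 CPM (606 to 762) in floxed Slc12a3-positive cells, with medians of 12.5 and 8 UMIs per cell.

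**Figure D1:**
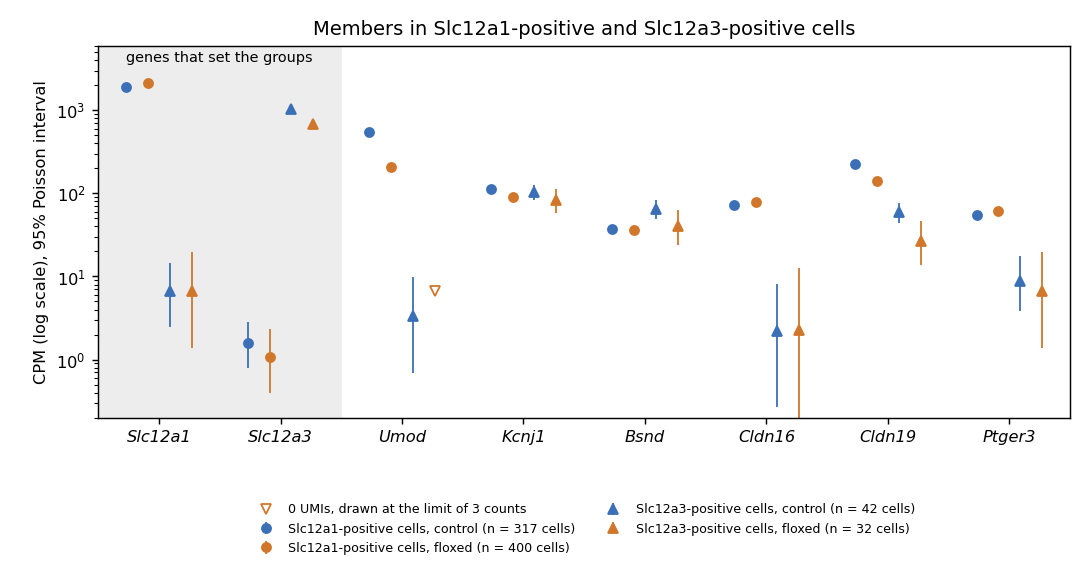
Level of each gene (CPM, log axis, with 95% Poisson intervals) in Slc12a1-positive cells (circles) and Slc12a3-positive cells (triangles) of the control (blue) and floxed (orange) libraries. Umod, Cldn16, Cldn19 and Ptger3 were higher in Slc12a1-positive cells of both libraries, while Kcnj1 and Bsnd were not called; the open triangle marks 0 UMIs drawn at the limit of 3 counts.

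Of the 6 genes that did not define the groups, 4 were higher in Slc12a1-positive than in Slc12a3-positive cells in each library. The rule for calling a difference asked for at least 25 CPM in the higher group and an interval of the ratio wholly beyond 1.5-fold. By that rule 1.57% of 5786 genes were higher in the control library and 1.44% of 5709 genes in the floxed library. The genes called were Umod, Cldn16, Cldn19 and Ptger3 in both, and the same 4 were called among the cells of cluster 21 alone, where 1.78% of genes were higher in the control and 1.63% in the floxed library. With the stricter cell filter Ptger3 was not called in the control library, at a log2 ratio of 1.59 (0.00518 to 3.89).

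Umod (chr7:119462708-119479262) had the highest ratio in the control library. It summed to 3814 UMIs in control Slc12a1-positive cells (546 CPM, interval 529 to 564) and to 3 UMIs in control Slc12a3-positive cells (3.35 CPM), a 163-fold ratio with a wide interval (55.8 to 792). In the floxed library the values were 1164 UMIs (210 CPM, 198 to 222) and 0 UMIs, at least 31.2-fold higher when the 0 is set to the limit of 3 counts. Uromodulin RNA was thus high on the Slc12a1 side of the split and at or near 0 on the Slc12a3 side in both libraries.

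The claudins followed Umod in direction. Cldn16 (chr16:26463135-26482765) stood at 72.8 CPM in control and 79.9 CPM in floxed Slc12a1-positive cells, and had 2 UMIs and 1 UMI in all Slc12a3-positive cells as a group, for ratios of 32.6 (8.99 to 270) and 35.6 (6.35 to 1409). Cldn19 (chr4:119255441-119262438), whose product pairs with claudin-16, stood at 227 and 142 CPM against 59.1 CPM (53 UMIs) and 12 UMIs, for ratios of 3.84 (2.92 to 5.15) and 5.26 (2.99 to 10.2). At least 1 UMI of Cldn19 was found in 52.4% of control and 18.8% of floxed Slc12a3-positive cells, at median depths of 18505.5 and 10769.5 UMIs, against 2.53 and 0.847% of endothelial-like cells that met neither transporter rule, at 4415 and 3326 UMIs. After every cell was thinned to 2000 UMIs, the control shares were 9.52% (4 of 42 cells, 2.66 to 22.6%) and 0.927% in endothelial-like cells (0.601 to 1.37%). In the floxed library 0 of 30 thinned Slc12a3-positive cells held it (0 to 11.6%), against 0.440% of endothelial-like cells. With so few cells, that depth cannot tell the floxed group from background.

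Ptger3 (chr3:157566821-157644758), the EP3 receptor gene, stood at 55.1 CPM in control and 62.3 CPM in floxed Slc12a1-positive cells, against 8.92 CPM (8 UMIs) and 6.74 CPM (3 UMIs) in Slc12a3-positive cells. The ratios were 6.18 (3.11 to 14.4) and 9.24 (3.13 to 45.0). It was found in 127 of 317 control and 131 of 400 floxed Slc12a1-positive cells, so most of them held no UMI of it at this depth.

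The channel genes did not split the groups by the same rule. Kcnj1 (chr9:32372418-32399197) stood at 113 and 90.2 CPM in Slc12a1-positive cells and at 104 and 83.1 CPM in Slc12a3-positive cells, with ratios of 1.09 (0.882 to 1.37) and 1.09 (0.777 to 1.56). Bsnd (chr4:106483456-106492243) stood at 37.1 and 36.1 CPM against 64.7 and 40.4 CPM, with ratios of 0.574 (0.430 to 0.776) and 0.892 (0.550 to 1.54). The control interval of Bsnd lay below 1, that is, lower in Slc12a1-positive cells, without passing the rule.

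The sequence just before the start of 3 of these genes is shown because Slc12a1 and Slc12a3 set the split and Umod followed it most closely. The windows come from the RefSeq promoter table (GRCm38.p6), cut at the first base of the gene so that no transcribed base is included. They are Slc12a1 (chr2:125152350-125152509, plus strand), Slc12a3 (chr8:94328958-94329108, plus strand) and Umod (chr7:119479263-119479512, minus strand), each 5′ to 3′. Capitals mark the letters GTTAAT, the core of the binding motif of HNF1 factors, which are transcription factors of kidney epithelium.
Slc12a1: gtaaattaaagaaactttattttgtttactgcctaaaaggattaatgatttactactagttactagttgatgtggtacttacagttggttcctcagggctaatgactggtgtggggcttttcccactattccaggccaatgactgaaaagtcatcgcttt
Slc12a3: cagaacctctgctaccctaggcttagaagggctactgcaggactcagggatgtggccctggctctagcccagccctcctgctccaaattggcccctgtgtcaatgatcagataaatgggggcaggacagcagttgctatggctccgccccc
Umod: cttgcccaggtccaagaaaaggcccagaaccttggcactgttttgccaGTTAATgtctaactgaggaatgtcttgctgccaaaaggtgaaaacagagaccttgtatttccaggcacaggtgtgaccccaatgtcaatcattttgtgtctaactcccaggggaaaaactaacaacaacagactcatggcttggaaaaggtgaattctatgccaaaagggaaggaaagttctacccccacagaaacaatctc
Of the 7 genes with an entry in the table, GTTAAT on either strand was found in the window of Umod alone, starting 202 bases before the window's end. It occurred in 6.43% of the 32851 windows of 250 bases in the table. TATAAA, the letters of the TATA box (12.4% of windows), and AAGGTCA, a site of oestrogen-related receptors (4.08%), were found in none of the 7, and neither were AACCGGTT, a Grainyhead-like site (0.116%), and GCCNNNGGC, an AP-2 site (13.7%). The windows of Slc12a1 (160 bases), Slc12a3 (151 bases) and Ptger3 (195 bases) are shorter than those counted over the table, and that of Kcnj1 lies inside the span of its gene in the table. A match describes letters only.

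Genes of the same pathways, from lists that leave out these 8, gave a fuller picture of the split. Of 9 genes of the WNK and SPAK kinase pathway, which switches both cotransporters on by phosphorylation, 0 were higher and 4 were lower in control Slc12a1-positive cells (Wnk1, Wnk4, Klhl3 and Sgk1), and 3 were lower in the floxed library (Wnk1, Klhl3 and Sgk1). Of all genes tested, 3.44% were lower in the control and 2.66% in the floxed library. The list's median log2 ratio was -0.56 in the control and -0.52 in the floxed library, against -0.00135 and -0.03 over all genes tested. Wnk1, the kinase gene with a kidney-specific short form, stood at 258 and 243 CPM in Slc12a1-positive cells and at 914 and 584 CPM in Slc12a3-positive cells. Klhl3, which encodes the adaptor that brings WNK kinases to degradation, stood at 15.6 and 15.7 CPM against 91.4 and 53.9 CPM.

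Among genes of paracellular and divalent cation transport, 10 of 17 reached the minimum level in the control library and 12 in the floxed library. In the control, 2 were higher in Slc12a1-positive cells (Cldn10 and Cldn3) and 5 lower (Cldn8, Trpm7, Cnnm2, Pvalb and Calb1). In the floxed library, Cldn10 alone was higher and 7 were lower, among them Cldn8, Trpm7, Cnnm2, Calb1 and Trpv5. Of all genes tested, 1.57% in the control and 1.44% in the floxed library were higher, and 3.44 and 2.66% were lower. The list's median log2 ratios were -1.10 and -1.67, against -0.00135 and -0.03 over all genes tested. Trpv5, the apical calcium channel of the connecting tubule, had 26 UMIs in floxed Slc12a3-positive cells (58.4 CPM) and 1 UMI in floxed Slc12a1-positive cells.

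Of 18 transcription factors of the distal nephron, 13 reached the minimum level in the control library and 11 in the floxed library. The same 4 were higher in Slc12a1-positive cells of both libraries, Irx1, Irx2, Sim2 and Ehf, and Emx1 was lower. The shares of all genes called were 1.57 and 1.44% higher and 3.44 and 2.66% lower. Irx1, an Iroquois factor of the loop, stood at 203 and 234 CPM against 1 and 5 UMIs in Slc12a3-positive cells. Emx1 stood at 3.44 and 5.41 CPM against 136 and 207 CPM. Their median log2 ratios over the genes at the minimum level were 0.24 and 0.21. Slc9a3, encoding the sodium-hydrogen exchanger NHE3, was higher in Slc12a1-positive cells of both libraries, at 32.1 and 28.7 CPM against 1 and 0 UMIs. Hsd11b2, whose enzyme shields the mineralocorticoid receptor from glucocorticoids, was lower in both, at 9.88 and 21.7 CPM against 34.6 and 96.6 CPM.

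Across the kidney the 8 genes were concentrated in few cells, to different degrees. Cluster 30 of the finer clustering held 80.1% of control and 79.5% of floxed Slc12a1 UMIs in kept cells. It held 73.9 and 71.2% of Kcnj1 UMIs, 68.8 and 74.9% of Cldn16, 65.9 and 65.5% of Ptger3 and 66.7 and 53.7% of Umod. The shares were 49.4 and 40.9% for Slc12a3, 48.8 and 53.9% for Bsnd and 47.5 and 50.8% for Cldn19. In the control library these 3 lay below the other 5, and in the floxed library Bsnd and Umod had nearly the same share.

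**Figure D2:**
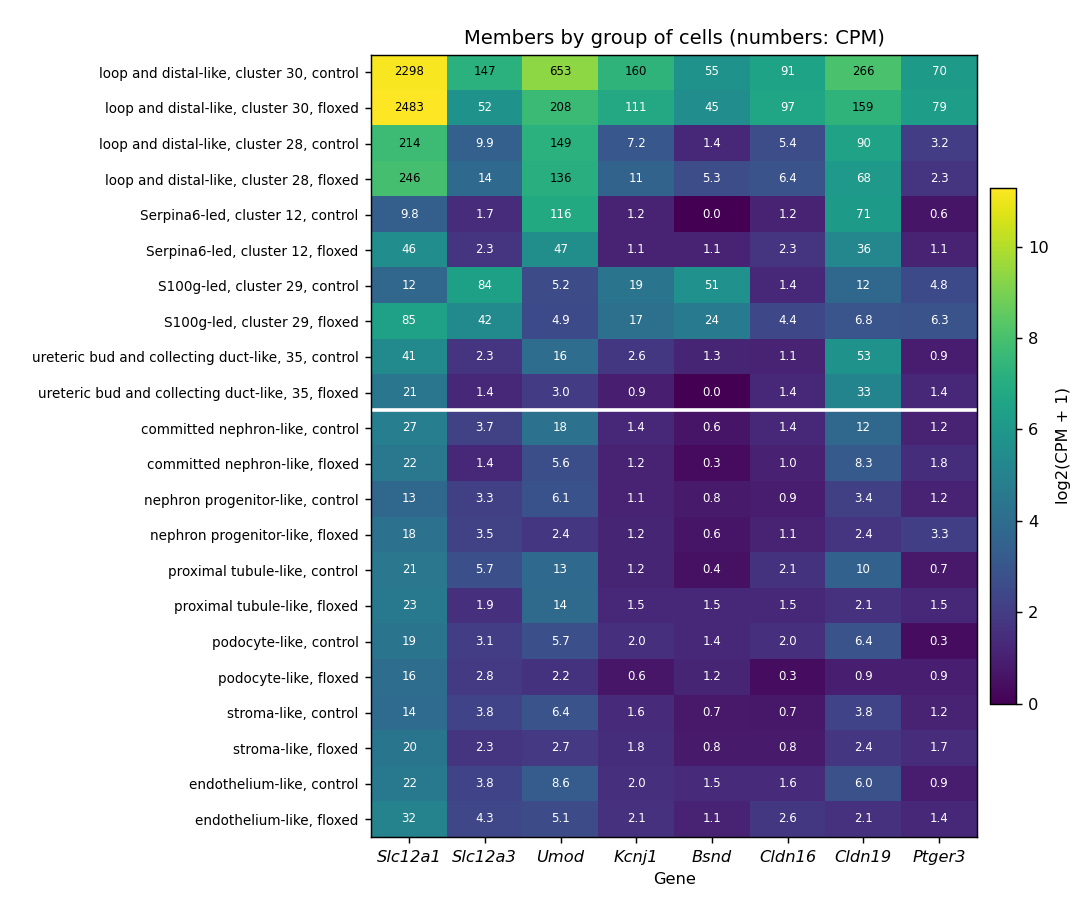
Level of each gene in groups of cells, by library. Colour is log2(CPM + 1) and the number in each cell of the map is the CPM; rows above the white line are clusters at Leiden resolution 2 and rows below it are named classes at resolution 1. Among the groups drawn, all 8 genes were highest in cluster 30 in both libraries, Cldn19 was also found in the ureteric bud and collecting duct-like cluster 35, and Umod in clusters 28 and 12.

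In classes that should lack NKCC2 the level of Slc12a1 was low. It ran from 11.6 CPM in neutrophil-like to 44.2 CPM in macrophage-like cells of the control library, and from 15.5 CPM in podocyte-like to 33.9 CPM in macrophage-like cells of the floxed library. Stroma-like cells held 14.2 and 19.7 CPM, nephron progenitor-like cells 12.8 and 18.2 CPM and endothelial-like cells 22.2 and 31.9 CPM. These levels serve as background, though some rest in part on single cells: 1 control macrophage-like cell held 47 of the 133 UMIs there, and 1 endothelial-like cell held 51 of 385 in the control and 50 of 200 in the floxed library.

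Umod was high against Slc12a1 in a cluster where Slc12a1 was at background in the control library. In cluster 12, an unnamed group of 113 control and 175 floxed cells led by Serpina6, Cryab and Bst1, Umod stood at 116 CPM in the control library and 46.7 CPM in the floxed, while Slc12a1 stood at 9.78 and 45.6 CPM. Cldn19 was there too, at 70.8 and 36.5 CPM, and the other 5 genes were at 2.28 CPM or less. In the control library that was 1182 UMIs of Umod for every 100 of Slc12a1, against 28.4 in cluster 30 and 38.7 in endothelial-like cells. By the rule, Slc12a1 was higher and Umod lower in the floxed cells of cluster 12, where 2.2% of genes were higher and 2.13% lower.

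Cluster 28 was the second loop and distal-like cluster, with 156 control and 295 floxed cells, and was led by Spon1, Sim2, Irx1, Irx2, Tfap2b and Lgr5. Slc12a1 stood at 214 and 246 CPM there, Umod at 149 and 136 CPM and Cldn19 at 89.9 and 68.1 CPM. The other genes were low but not all at background. Kcnj1 stood at 7.23 CPM (4.13 to 11.7) and 10.97 CPM (7.34 to 15.8), against 1.96 CPM (1.36 to 2.74) and 2.07 CPM (1.10 to 3.54) in endothelial-like cells. Cldn16 stood at 5.42 and 6.43 CPM, against 1.62 and 2.55 CPM in endothelial-like cells, and Ptger3 at 3.16 and 2.27 CPM, against 0.866 and 1.44 CPM. Umod thus stood at 69.6 and 55.3 UMIs for every 100 of Slc12a1, against 28.4 and 8.39 in cluster 30.

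Cldn19 also had a place in the ureteric bud lineage. In the ureteric bud and collecting duct-like cluster 35 it stood at 53.2 CPM in the control library and 33.2 CPM in the floxed, with 129 and 159 UMIs for every 100 of Slc12a1, and Cldn16 stood at 1.14 and 1.37 CPM. That cluster held 12.1 and 10.6% of all Cldn19 UMIs. Slc12a1 was 1.99-fold lower there in the floxed library (1.57 to 2.54), at 41.4 and 20.8 CPM, where 0.932% of genes were lower. The cluster held 14 control and 2 floxed Slc12a1-positive cells. Over all ureteric bud and collecting duct-like cells Cldn19 stood at 34.5 and 20.2 CPM, against 2.07 to 6.01 CPM in endothelial-like cells.

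Slc12a3 and Bsnd shared a further location, cluster 29. Its 138 control and 144 floxed cells scored highest for intercalated cell markers, but S100g, Trpv5 and Calb1 of the distal and connecting tubule also led it. Slc12a3 stood there at 83.6 and 41.7 CPM and Bsnd at 50.8 and 23.8 CPM, against 147 and 52.4 CPM and 55.0 and 44.6 CPM in cluster 30. Barttin is also known from intercalated cells. Of the Slc12a3-positive cells, 13 of 42 and 8 of 32 lay in cluster 29 and 24 and 16 in cluster 30.

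With the 8 genes themselves left out of the ranking, those whose pattern over the 29 clusters was most like that of Slc12a1 were Kng2, Pappa2, Gpx6 and Tmem72, with Pearson correlations of log2(CPM + 1) from 0.93 down to 0.90. For Slc12a3 they were Klk1, Defb1, Kng2, Defb42 and S100g, from 0.88 down to 0.73. Of the 8 genes, Cldn16 was closest to Slc12a3, at 0.82, a value that of these 5 only Klk1 exceeded. Yet all Slc12a3-positive cells together held 2 UMIs of Cldn16 in the control library and 1 UMI in the floxed. Cluster 21 pooled most Slc12a1-positive and most Slc12a3-positive cells of both libraries. Correlations over these clusters therefore cannot tell those groups of cells apart. Slc12a1 and Slc12a3 correlated with each other at 0.73, and Umod correlated with Slc12a1 at 0.88 and with Slc12a3 at 0.61. These values rank 9232 genes as a description, over clusters that share libraries and differ in depth.

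Between genotypes, Umod was the gene that differed within Slc12a1-positive cells. It fell from 546 to 210 CPM, 2.60-fold lower in the floxed library (interval 2.43 to 2.78), and was the only one of 7 genes at the minimum level past the rule, where 3.86% of 5644 genes were called in either direction and 2.29% lower. Cldn19 came next, at 227 and 142 CPM. It was 1.60-fold lower, with an interval of 1.47 to 1.74 that crossed the 1.5-fold limit. It passed the rule in 6 of the 10 alternatives to this count, among them the cells of cluster 21 alone, and missed it in 4.

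No other gene of the 7 passed the rule. Slc12a1 itself was 1.13-fold higher in the floxed library (1.10 to 1.16), with the group defined by it. Cldn16 was 1.10-fold (0.965 to 1.25) and Ptger3 1.13-fold (0.973 to 1.31) the control level, and Bsnd 0.973-fold (0.805 to 1.17). Kcnj1 was 1.26-fold lower (1.12 to 1.41). The upper and lower bounds for Slc12a1, Kcnj1, Bsnd, Cldn16 and Ptger3 all lay within 1.5-fold of the control. Over all kept cells, where the share of loop cells also counts, Slc12a1 was higher in the floxed library, at 99.3 and 153 CPM, and Umod lower, at 33.8 and 19.0 CPM, with 2% of genes higher and 1.95% lower.

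**Figure D3:**
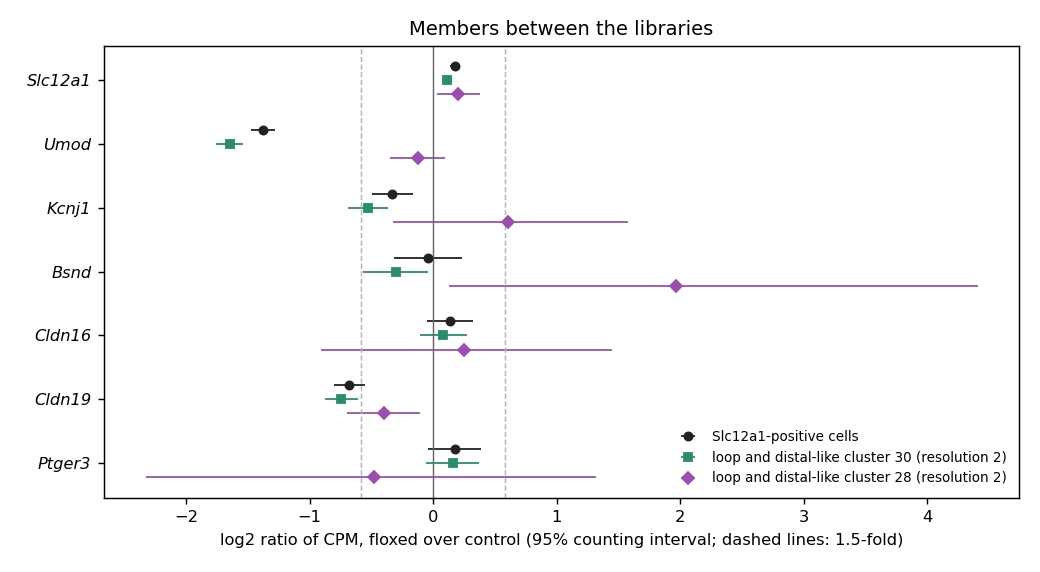
Log2 ratio of CPM, floxed over control, for 7 of the genes in Slc12a1-positive cells (circles), loop and distal-like cluster 30 (squares) and loop and distal-like cluster 28 (diamonds), with 95% counting intervals and dashed lines at 1.5-fold. Umod lay at -1.38 and -1.65 in the first 2 groups and at -0.13 in cluster 28, and wide intervals in cluster 28 come from few UMIs.

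The fall of Umod was seen in how many cells held it and in how much they held. It was without a UMI in 111 of 317 control and 224 of 400 floxed Slc12a1-positive cells. Cells with at least 10 Umod UMIs made up 33.4 and 8.25%. Among cells with any, the median was 617 CPM in the control library and 244 CPM in the floxed. After thinning to 2000 UMIs, which left out 3 and 7 shallower cells, 40.8% of control (35.3 to 46.4%) and 19.6% of floxed cells (15.8 to 23.9%) held Umod, with intervals that do not overlap. Cldn19 was held by 35.03% of thinned control cells (29.8 to 40.6%) and 19.6% of floxed cells (15.8 to 23.9%), intervals that do not overlap either. The thinned shares of Kcnj1 (16.2 and 14.2%), Cldn16 (10.8 and 14.8%), Ptger3 (9.24 and 9.41%) and Bsnd (6.69 and 7.89%) had overlapping intervals. These thinned shares were not set against those of all genes, so how common such a lack of overlap is among genes is not known. The intervals cover counting error only and not a shift of a whole library. Unthinned, Cldn19 was held by 260 of 317 and 248 of 400 cells, Kcnj1 by 196 and 183, Cldn16 by 150 and 176, Ptger3 by 127 and 131 and Bsnd by 116 and 122.

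Without the 10 cells of each library that held most Umod, its level was 450 CPM in the control library and 146 CPM in the floxed, a 3.08-fold difference. Weighting each cell equally gave 510 and 220 CPM, 2.32-fold. The same Slc12a1-positive cells differed in signs of other cells: the summed level of 6 erythroid markers was 752 CPM in the control library and 4024 CPM in the floxed, and 10 proximal tubule markers summed to 419 and 215 CPM, with Slc5a2 at 0 in the floxed cells. In all kept cells the erythroid sum was 3952 and 12640 CPM. With mitochondrial, ribosomal and haemoglobin UMIs left out, Umod differed by -1.42 on the log2 scale, against -1.38 with them. The part of the proximal tubule markers was not tested.

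The size of the Umod difference depended on the cluster. In cluster 30 it stood at 653 and 208 CPM, 3.13-fold lower in the floxed library (2.91 to 3.38). In cluster 28 it stood at 149 and 136 CPM, with a ratio of 0.916 (0.787 to 1.07). In cluster 30, 3 of 8 genes passed the rule in the lower direction, Umod, Slc12a3 and Cldn19, where 2.37% of 5530 genes were lower. In cluster 28 no gene of the 3 at the minimum level passed it, where 2.27% of 5644 genes were called in either direction. The 2 ratios of Umod had intervals that do not overlap, with no replicate for their difference. Umod was also lower in the ureteric bud and collecting duct-like cluster 35, a lineage where recombination is not expected. It stood there at 15.5 CPM (109 UMIs) and 2.98 CPM (13 UMIs), under the minimum level, a ratio of 0.192 (0.0990 to 0.342). Cluster 35 held 14 control and 2 floxed Slc12a1-positive cells, and their part in this difference was not tested. Cldn19 had a ratio of 0.624 (0.511 to 0.758) in cluster 35, against 0.625 in Slc12a1-positive cells. The reason was not tested.

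In the cells of cluster 21 with under 3 UMIs of both transporters, the summed level of Umod was higher in the floxed library. It stood there at 13.8 CPM (31 UMIs) in the control library and 44.9 CPM (81 UMIs) in the floxed, 3.25-fold higher (2.13 to 5.09). The share of cells with a UMI of Umod was not higher, at 17 of 118 control cells (14.4%, 8.62 to 22.1%) and 17 of 144 floxed cells (11.8%, 7.03 to 18.2%), and single cells held up to 7 and 19 UMIs. Bsnd fell from 49.9 to 18.8 CPM. By the rule 1.61% of genes were higher and 2.44% lower there. The control cells of this set held 27 UMIs of Slc12a1 and the floxed cells 38. The limit of 3 UMIs takes no account of depth, which was lower in the floxed library, and its part in this result was not tested.

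Slc12a3 was lower in the floxed library over all cells of cluster 21, at 125 and 48.2 CPM, 2.59-fold (2.29 to 2.94). With Umod it made 2 of 8 genes past the rule in that cluster, where 4.21% of 5562 genes were called and 2.55% lower. Slc12a3-positive cells were 9.37% (6.68 to 12.7%) of its control cells and 4.92% (3.21 to 7.18%) of its floxed cells. Within Slc12a3-positive cells the level that defined them was 1.53-fold lower (1.34 to 1.74), and none of the 4 genes at the minimum level passed the rule, where 2.8% of 5855 genes did. Of these, Kcnj1 stood at 104 and 83.1 CPM, Bsnd at 64.7 and 40.4 CPM and Cldn19 at 53 and 12 UMIs. The intervals of their ratios were wide, 0.532 to 1.19 for Kcnj1, 0.347 to 1.08 for Bsnd and 0.222 to 0.865 for Cldn19.

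In cluster 29 the 2 transporters moved apart between the libraries. Slc12a1 stood at 12.1 CPM (35 UMIs) in the control library and 85.4 CPM (176 UMIs) in the floxed, 7.06-fold higher (4.89 to 10.5), while Slc12a3 was 2.00-fold lower (1.56 to 2.59) and Bsnd 2.14-fold lower (1.54 to 3.02). Of the genes there 3.73% were called. The floxed cells of this cluster held 6 Slc12a1-positive cells and the control cells 1. Foxi1 and Atp6v1g3, intercalated cell genes, were at 1.86 and 4.58 CPM in control and at 9.20 and 35.9 CPM in floxed Slc12a1-positive cells.

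Among the related lists, few genes differed between genotypes in Slc12a1-positive cells. Calb1 was 1.90-fold lower (1.63 to 2.21) and Slc4a4 2.89-fold lower (2.27 to 3.70). Slc4a4 encodes a sodium bicarbonate cotransporter best known from the proximal tubule, and the 10 proximal tubule markers summed to 419 and 215 CPM in the same cells. Their part in this difference was not tested. None of the 8 WNK and SPAK genes or 12 transcription factors at the minimum level passed the rule. Their median log2 ratios were -0.11 and 0.18, against -0.03 over all genes tested.

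Within the Slc12a1-positive cells, Umod, Ptger3, Kcnj1 and Cldn19 were found more often in cells that also held Cldn10. Cldn10 RNA comes in forms that 3′ tags do not separate. With each cell thinned to 4000 UMIs, which left out 6 control and 26 floxed cells, Umod was found in 64.2% of control cells with Cldn10 and in 22.9% of those without, and in 41.6 and 14.5% of floxed cells. Ptger3 was found in 22.8 and 3.12% of control cells and in 23.8 and 5.23% of floxed cells. For Kcnj1 the values were 39.1 and 12.5% in the control and 34.2 and 15.7% in the floxed library, and for Cldn19 58.6 and 29.2% and 50 and 25.6%. Thinning to 2000 UMIs was the main setting, and its values for these pairs are not given here. These shares were not set against those of all genes. The comparison took all Slc12a1-positive cells, of which 229 of 317 control and 331 of 400 floxed cells lay in cluster 21. The part of the cells outside that cluster was not tested. Unthinned, Umod was found in 74.4 and 29.9% of control cells and in 56.3 and 18.9% of floxed cells.

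Cldn16 did not follow this pattern. It was found in 23.3% of control cells with Cldn10 and 28.1% of those without, and in 18.8 and 25.6% of floxed cells, with intervals that overlap. Bsnd was found in 28 of 215 control cells with Cldn10 and 9 of 96 without, and in 13.9 and 9.88% of floxed cells, also overlapping. Cells with Cldn10 were somewhat deeper before thinning, at medians of 17281 and 15171 UMIs in the control library and 12199 and 10038.5 UMIs in the floxed.

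Detection of Umod was also set against the level of Slc12a1. In cluster 21, thinned to 2000 UMIs, Umod was found in 4.85% of control cells with 0 UMIs of Slc12a1, and in 54.5, 48.2 and 52.5% of those with 1, with 2 to 4 and with 5 or more. The floxed values were 4.65, 31.4, 36.1 and 17.9%. Among cells with 5 or more Slc12a1 UMIs the floxed interval (12.5 to 24.5%) lay below that of floxed cells with 2 to 4 (27.6 to 45.3%). Thinned to 4000 UMIs, these floxed shares were 33.2 and 36.2% with overlapping intervals, and unthinned they were 48.3% of 323 cells and 26.9% of 26 cells, so no order between these levels is read from them. The gap between the libraries at 5 or more Slc12a1 UMIs was present each time, at 59.8 and 33.2% thinned to 4000 UMIs and 73.3 and 48.3% unthinned. This gap was not set against that of all genes. Kcnj1, Cldn16 and Ptger3 were found more often at 5 or more Slc12a1 UMIs than at 0 in both libraries, while Slc12a3 went from 22.4 to 2.46% in the control and from 13.4 to 1.16% in the floxed library.

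**Figure D4:**
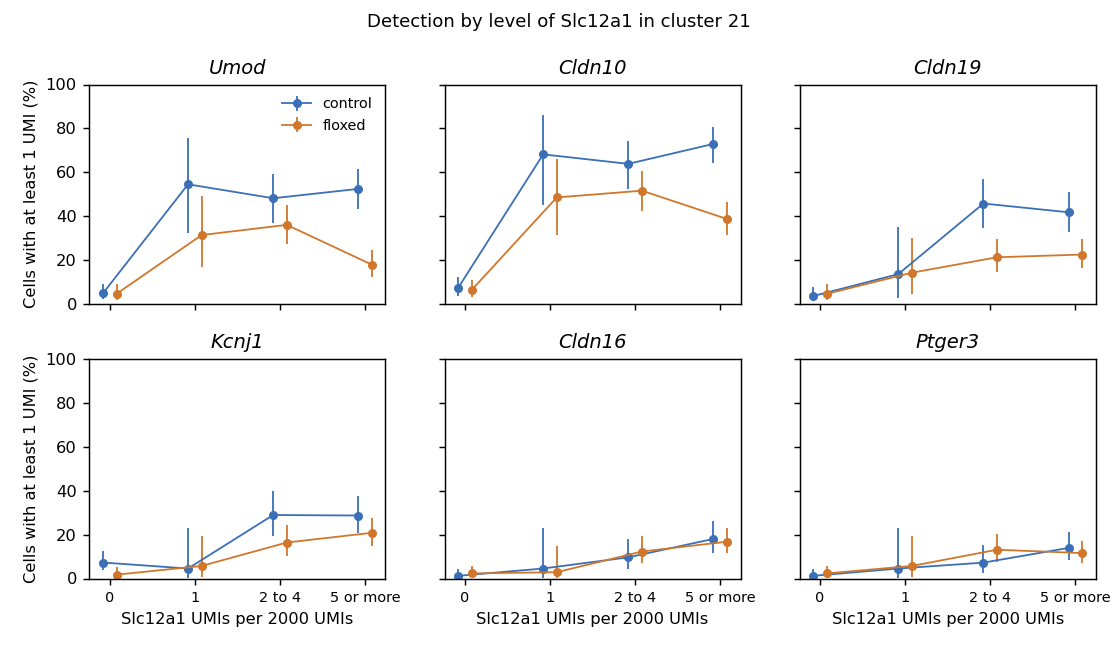
Share of cells of cluster 21 with at least 1 UMI of each gene (percent, with 95% binomial intervals), by the number of Slc12a1 UMIs, after thinning each cell to 2000 UMIs, in the control (blue) and floxed (orange) libraries. Umod was found in 52.5% of control and 17.9% of floxed cells with 5 or more Slc12a1 UMIs, a floxed share that was 33.2% with thinning to 4000 UMIs, while the intervals of Cldn16 and Ptger3 overlap between the libraries at each level.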

How the data were processed

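Single-cell RNA counts of 2 newborn mouse kidney libraries were used. The authors deposited UMI counts per gene and barcode, not normalised. Per the submitters' processing notes Cell Ranger 6.0.2 and mm10 were used, and per the file headers version 6.0.1 wrote the matrices. The annotation release is not given in the sources used here. Cells with at least 1000 UMIs, 500 genes and under 15% mitochondrial UMIs were kept, and the 8% highest scrublet scores of each library were removed, because the automatic threshold marked 0 floxed cells.

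Cells were clustered with scanpy 1.11.5 (2000 variable genes, which left out the 8 genes described and mitochondrial, ribosomal, sex-linked and haemoglobin genes; 30 principal components; 15 neighbours; Leiden resolution 1, and 0.5 and 2 as alternatives), with no batch correction. A cluster was named from a marker list where the list's mean log2 ratio of CPM + 1 to all other cells was at least 0.5, the next list was not close, and its depth and leading genes did not go against the name. UMIs were summed per library and group of cells. Intervals at 95% are exact: Poisson for CPM, conditional binomial for a ratio of CPM and Clopper-Pearson for a share. No test across animals was possible with 1 library per genotype. The calling rule was tried on counts simulated as independent Poisson draws per gene. Such counts hold no differences between cells or between libraries, so they cannot check the rule against those. Genes, pathway lists and markers were chosen with earlier results of these data known. Genes of other lists are named where they passed the calling rule, at most 6 per list, and genes most like a member are the 5 with the highest correlations, the 8 left out. Some items are not reported here. Depth per library is given with the results. Python 3.11.15, numpy 2.4.6, scipy 1.17.1 and pandas 2.3.3 were used. Alternatives covered the UMI limit, cell filters, doublets, depth, thinning, the CPM base and resolution.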

Additional observations from a re-analysis of the deposited data

How the results depend on the processing

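No paired analysis was possible because each genotype has 1 library. The 4 genes higher in Slc12a1-positive than in Slc12a3-positive cells stayed at 4 in both libraries in all settings but the stricter cell filter, which gave 3 in the control library, without Ptger3. The number of genes that differed between genotypes in Slc12a1-positive cells was 2, not 1, with at least 5 UMIs for a positive cell, in cluster 21 alone, without doublet removal, after thinning, with CPM that leave out mitochondrial, ribosomal and haemoglobin UMIs, and with at least 10 UMIs, a setting added after seeing the data. The second gene was Cldn19. In Slc12a3-positive cells it was 1, not 0, with the looser cell filter, again Cldn19. The log2 ratio of the share of Slc12a1-positive cells, 0.77, became 1.09 with the stricter filter, 0.32 with the looser filter and 0.39 with the 10000 deepest barcodes. That of Slc12a3-positive cells, 0.05, became -0.73 with at least 10 UMIs. Umod was lower in the floxed library in all 14 settings, by 2.26 to 3.18-fold, and Cldn19 by 1.42 to 1.92-fold. Most settings used Slc12a1-positive cells, and the others all cells of cluster 21 or of the loop and distal-like clusters at resolution 2. The few Slc12a3-positive cells limit what could be read for that group. In Slc12a1-positive over Slc12a3-positive floxed cells the log2 ratio ran from -0.60 to 1.23 for Bsnd and from -0.77 to 1.54 for Kcnj1. No called value changed direction. Ratios against a group with 0 UMIs have no value in these comparisons.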
